A study of Mus musculus with 10 samples.

Results

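The collagen genes are the 44 genes of 45706 whose symbol has the form Col, a number, the letter a and a second number. They were chosen by that name alone, and every gene that matched was followed through the reprogramming of mouse fibroblasts toward pluripotency. RNA was sequenced from 5 groups of cells with 2 libraries each, 10 libraries in all. The MEF group held mouse embryonic fibroblasts of C57BL/6 x 129 background with a polycistronic OKSM cassette (Oct4, Klf4, Sox2 and Myc) inserted in the Col1a1 locus and the doxycycline-dependent transactivator M2rtTA in ROSA26, kept unsorted in MEF medium without doxycycline. The day 3, day 6 and day 9 groups carried the same alleles and were induced in ESC medium with doxycycline at 1 µg/ml and ascorbic acid at 50 µg/ml. Day 3 cells were unsorted, whereas the day 6 and day 9 cells were sorted for the surface antigen SSEA1. The ESC group was the V6.5 embryonic stem cell line, of the same strain background but without the cassette, grown in serum and LIF on irradiated feeder cells and unsorted. Because the uninduced fibroblasts also carry the insertion in Col1a1, an effect of the insertion itself cannot be read from the comparison of induced cells with MEF. The step from MEF to day 3 combines doxycycline, ascorbic acid, a new medium and a difference in sex-linked RNA, given below. The step from day 3 to day 6 combines time with the sort. These cannot be told apart.

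Collagens are secreted or membrane-bound proteins whose chains wind into a triple helix, and each chain is the product of its own gene. Fibrillar collagens (types I, II, III, V, XI and relatives) form the tensile fibres of connective tissue and are the main product of fibroblasts. Basement membrane collagens form or anchor the sheets beneath epithelia and around vessels, with the type IV network at their core and types VII, XV and XVIII beside it. The remaining classes include the beaded filaments of type VI, the short-chain types VIII and X, the fibril-associated types such as IX, XII and XVI, and the transmembrane types such as XIII and XVII. Ascorbic acid, part of the induction medium, is a cofactor of the hydroxylases that stabilise the helix. Pluripotent cells of the early embryo are epithelial and in contact with a basement membrane, while fibroblasts lose their mesenchymal programme early in reprogramming.

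Each library held between 29585876 and 38275024 estimated reads. Levels are given as CPM, read counts scaled to a common library size with TMM, a scaling under which most genes are taken as equal between libraries. CPM is not divided by gene length, so single genes are ranked against each other by TPM, which is. Summed CPM, shares of reads and ratios of reads are not divided by length, so long genes weigh more in them. Differences were tested with edgeR's quasi-likelihood test over 20165 genes, of which 43 were collagen genes, and called at a Benjamini-Hochberg adjusted p under 0.05 and a change of at least 2-fold. Col19a1, the one collagen gene left out by the filter on low counts, had at most 12 reads in any library. A further 11 collagen genes stayed under 1 TPM in the mean of every group. The labels do not say whether libraries of a group came from separate animals or cultures, so the p-values measure only the spread between these libraries. No replicate pair agreed within sampling noise. The summed CPM of 11 fibroblast markers was 18913 to 19863 in MEF and 601 to 631 at day 9, and Fn1 alone was 8661 ± 651 and 515 ± 25.7 of this. That of 5 pluripotency markers was 1.77 to 2.20 in MEF and 2803 to 2853 in ESC. Xist, the RNA of the inactive X chromosome, was at 0.766 ± 0.0381 CPM in MEF and 1009.9 ± 113 at day 3 (SD, n = 2), and the Y-linked Ddx3y was at 88.5 ± 2.93 and 0.0713 ± 0.0246. MEF and the induced cells therefore differ in sex-linked RNA and may come from different animals, which the labels do not state. Each comparison of induced cells with MEF carries this difference, and its part in the results below was not tested.

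The share of collagen RNA in the libraries fell at each step to day 9. It made up 5.34% ± 0.128 of all estimated reads in MEF, 0.972% ± 0.00693 on day 3, 0.251% ± 0.00284 on day 6, 0.148% ± 0.00382 on day 9 and 0.715% ± 0.0141 in ESC (SD, n = 2). No library of any of these groups overlapped one of another. Of summed TPM, which also divides by length, collagens held a smaller share with the same order of groups, from 0.995% ± 0.0396 in MEF to 0.0132% ± 0.000150 at day 9. In bulk RNA a loss of collagen-producing cells and a lower RNA level per cell cannot be told apart. The composition turned over as well. Fibrillar genes held 75.6% ± 0.1002 of the collagen reads in MEF, 36.2% ± 0.0421 at day 3, 4.91% ± 0.0201 at day 6 and 4.86% ± 0.0785 at day 9, then 66.6% ± 0.00700 in ESC. Basement membrane genes took the opposite course, with 7.19% ± 0.0145, 44.2% ± 0.360, 77.0% ± 0.608, 83.5% ± 0.106 and 24.2% ± 0.195. All other classes together held 17.2% ± 0.115, 19.6% ± 0.318, 18.1% ± 0.628, 11.6% ± 0.0273 and 9.18% ± 0.188. By exact permutation 2 libraries against 2 cannot give a two-sided p under 0.333, so these shares are given with their spread only.

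**Figure D1:**
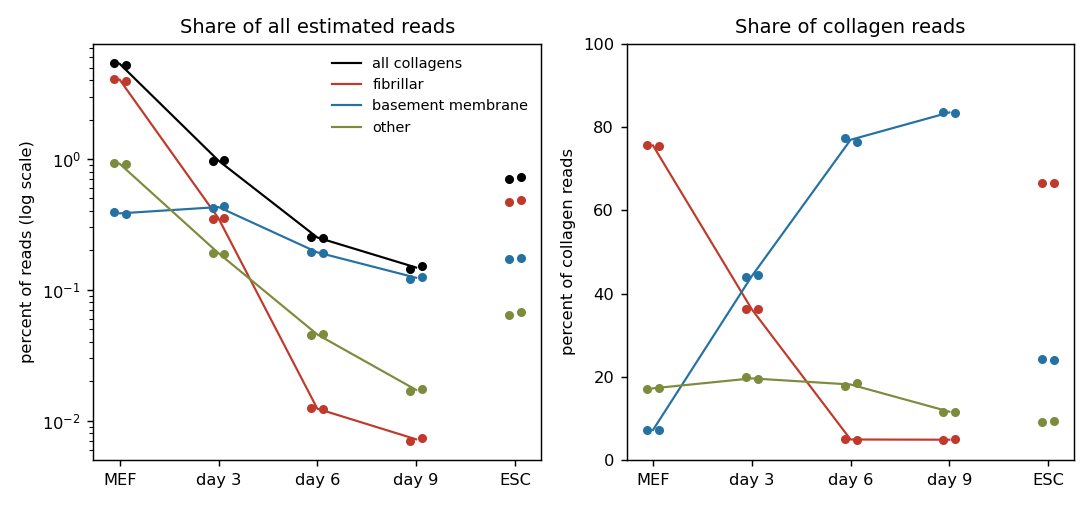
Left, percent of all estimated reads on collagen genes (log scale), and right, percent of the collagen reads on each class (linear scale), for the 5 groups; points are the 2 libraries of a group and lines join the means of MEF, day 3, day 6 and day 9. Total collagen falls from 5.34% in MEF to 0.148% at day 9, and basement membrane genes rise to 83.5% of what remains.

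Across the family most genes were called in most steps. From MEF to day 3, 28 of the 43 tested collagen genes were lower, against 14.5% of all tested genes, and 5 were higher, against 14.6%. From day 3 to day 6, 30 were lower (10.2% of all tested genes) and 3 higher (9.26%). From day 6 to day 9 only 9 were lower (2.68%) and 3 higher (5.18%), and 31 were not called, beside 7.87% of all tested genes called either way. Day 9 set directly against MEF had 35 lower (19.8%) and 2 higher (24.1%). ESC set against day 9 had the reverse balance, with 27 higher (18.6%) and 3 lower (14.3%), and ESC set against MEF had 33 lower (20.6%) and 6 higher (25.5%), beside 46.1% of all tested genes called either way. The median log2 fold change of the collagen genes was -1.53, -2.43, -0.43, -4.92, 2.36 and -2.90 in these 6 comparisons, in the same order. Over all tested genes it was 0.08, 0.03, 0, 0.19, 0.00 and 0.10. Comparisons that share a group share its libraries, so they are not separate pieces of evidence.

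By class, all 11 fibrillar genes were called lower at day 9 than in MEF, and 10 of them were already lower at day 3. Of the 9 basement membrane genes, 4 were lower and 2 higher at day 3, and 8 were lower at day 9 than in MEF. Of the 23 tested genes of the other classes, 14 were lower and 2 higher at day 3, and 16 were lower and 2 higher at day 9 than in MEF. ESC against day 9 had 10 of 11 fibrillar, 4 of 9 basement membrane and 13 of 23 other genes higher. Sorted by the group with the highest mean, 26 tested genes peaked in MEF, 9 at day 3, 2 at day 9 and 6 in ESC. In each case both libraries of the peak group were above all 8 others, but the peak was picked from these same values. Some peaks were not called differences, such as Col4a2 at day 3, 1.05-fold above MEF. The lowest group was day 9 for 22 genes, day 3 and day 6 for 7 each, ESC for 6 and MEF for 1. Peaks and lows were not counted over all tested genes, so these counts only describe the collagen genes.

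**Figure D2:**
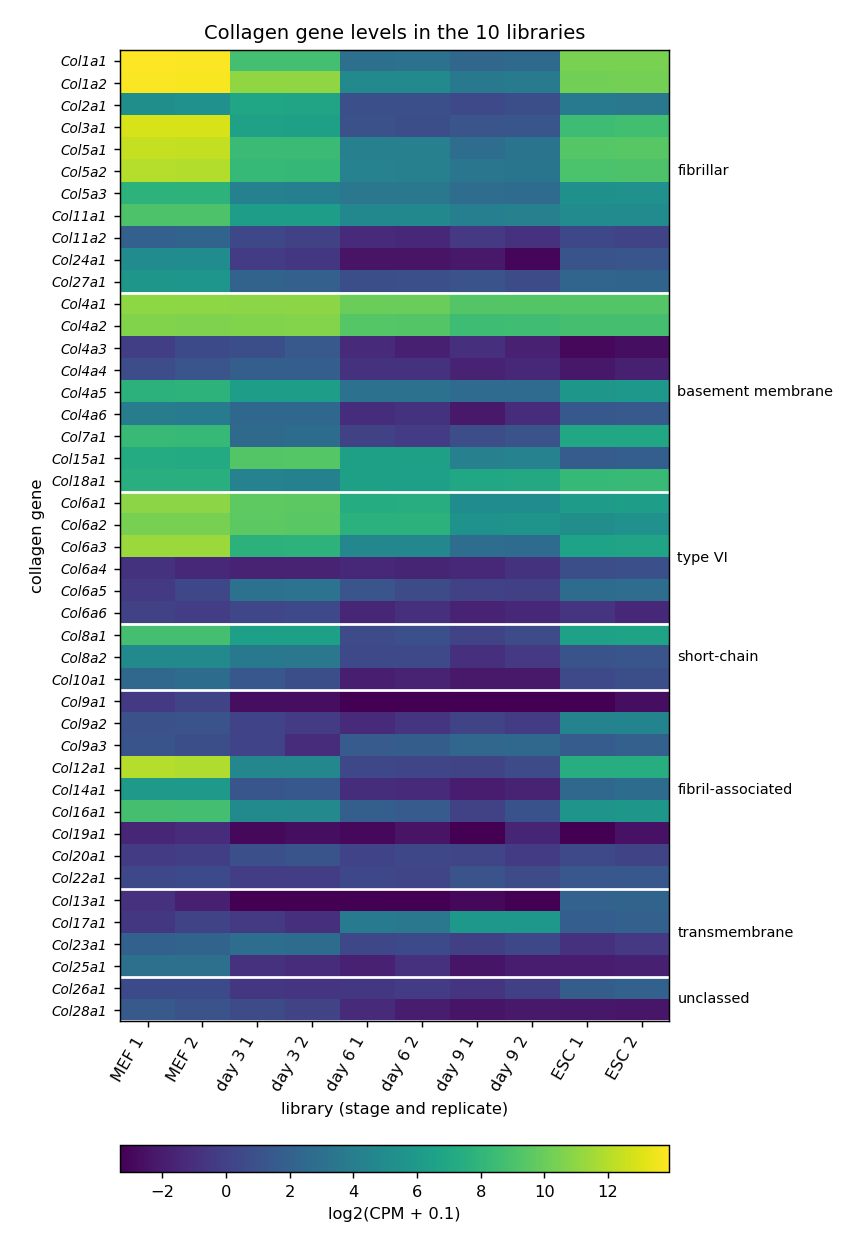
Heat map of the 44 collagen genes (rows, grouped by class) in the 10 libraries (columns), coloured by log2(CPM + 0.1). Most fibrillar rows are bright in MEF, dark at day 6 and day 9 and intermediate in ESC, whereas Col4a1 and Col4a2 stay bright throughout and Col17a1 is brightest at day 9.

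Type I collagen, the main protein of fibres, is made of chains from Col1a1 (chr11:94936224-94953042, GRCm38, plus strand) and Col1a2 (chr6:4504814-4541544, plus strand). Col1a1 was at 15555 and 14389 CPM in the MEF libraries, 444 and 445 at day 3, 8.23 and 8.47 at day 6, 5.14 and 6.21 at day 9 and, in ESC, 1406 and 1379.7. Col1a2 was at 14452 and 14149 CPM in the MEF libraries, 2178 and 2170.2 at day 3, 30.9 and 29.4 at day 6, 12.3 and 14.2 at day 9 and, in ESC, 1242 and 1297. Both genes were highest in MEF, and no group overlapped another in either gene. At day 3 Col1a1 had fallen 33.7-fold (log2 fold change -5.07 ± 0.05 SE, edgeR adjusted p = 5.7e-18), whereas Col1a2 had fallen 6.58-fold (-2.72 ± 0.04 SE, edgeR adjusted p = 3.5e-16). From day 3 to day 6 they fell 53.3-fold and 72.1-fold, and at day 9 they were 2610.3-fold and 1071-fold below MEF. From day 6 to day 9 Col1a2 fell 2.26-fold, and the 1.46-fold difference of Col1a1 was under the 2-fold minimum. ESC were 243-fold above day 9 for Col1a1 and 95.1-fold for Col1a2, and 10.7-fold and 11.3-fold below MEF.

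The balance of the type I chains moved in between. The ratio of estimated reads on Col1a1 to those on Col1a2 was 1.05 ± 0.0420 in MEF, 0.205 ± 0.000847 at day 3, 0.277 ± 0.0157 at day 6 and 1.10 ± 0.0487 in ESC (SD, n = 2). The ratio of gene-level TPM had the same order at higher values, 2.47 ± 0.119, 0.462 ± 0.0167, 0.734 ± 0.00361 and 2.57 ± 0.0312. The gene-level TPM of Col1a1 also counts short transcripts that hold few of its reads. Per length, the transcript that holds 96.9% of the Col1a1 reads was at 1169.9 ± 81.2 TPM in MEF and 35.5 ± 1.02 at day 3, beside 1278 ± 37.96 and 198 ± 5.07 for the main Col1a2 transcript. On either measure the day 3 and day 6 ratios lay below those of MEF and ESC in every library. Col1a1 is also the locus that holds the cassette. ESC lack it and MEF carry it uninduced, and their ratios differed by about the spread between libraries. The ESC were grown on feeder cells, and the part of feeder RNA in their ratio was not tested, so this does not bear on the insertion. A part of induction at the locus in the low ratio at day 3 was not tested.

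**Figure D3:**
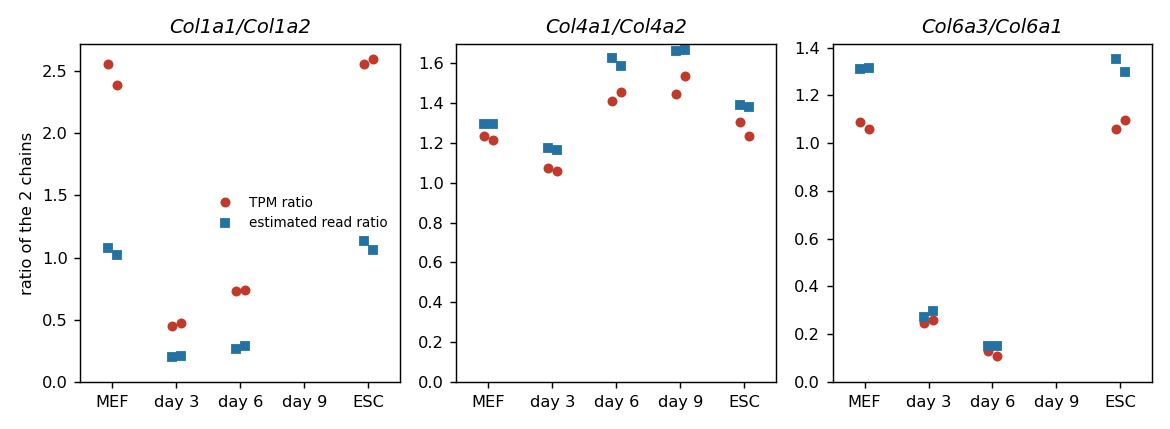
Ratio of partner chains in each library, from gene-level TPM (red circles) and from estimated reads (blue squares), for Col1a1/Col1a2, Col4a1/Col4a2 and Col6a3/Col6a1; axes are linear from 0, and a group is left blank where a chain was under 1 TPM. The Col1a1/Col1a2 and Col6a3/Col6a1 ratios are low at day 3 and day 6 and higher in MEF and ESC, while the group means of Col4a1/Col4a2 stay between 1.07 and 1.49 by TPM.

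Type III collagen, a homotrimer of soft tissues, comes from Col3a1 (chr1:45311538-45349706, plus strand), which lies tail to tail with Col5a2, 24614 bases away. Col3a1 was at 7592 and 7656 CPM in the MEF libraries, 94.1 and 90.8 at day 3, 1.85 and 1.63 at day 6, 2.25 and 2.399 at day 9 and, in ESC, 386 and 421. MEF libraries were the highest and those of day 6 the lowest, with no overlap between groups. Its fall at day 3 was 82.5-fold (log2 fold change -6.37 ± 0.05 SE, edgeR adjusted p = 9.8e-19), and at day 9 it stood 3263-fold below MEF. This was the largest estimated fall of the tested collagen genes, within the spread of Col12a1. At day 9 Col3a1 was at 0.0305% ± 0.00138 of the MEF level and Col12a1 at 0.0332% ± 0.00867. ESC held 5.29% ± 0.321 of the MEF level.

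Type V collagen starts and sizes the fibrils, and its chains are encoded by Col5a1, Col5a2 and Col5a3. Col5a1 was at 5402 and 5178 CPM in the MEF libraries, 345 and 342 at day 3, 18.3 and 17.9 at day 6, 7.14 and 9.72 at day 9 and, in ESC, 672 and 711. Col5a2 was at 4050.1 and 4011 CPM in the MEF libraries, 298 and 293 at day 3, 19.8 and 18.4 at day 6, 10.7 and 10.4 at day 9 and, in ESC, 517 and 559.8. Col5a3 was at 228 and 223 CPM in the MEF libraries, 19.1 and 17.3 at day 3, 11.6 and 11.8 at day 6, 7.01 and 6.39 at day 9 and, in ESC, 40.5 and 42.6. In all 3 genes the order was MEF, ESC, day 3, day 6 and day 9, with no overlap. Col5a1 and Col5a2 fell 15.4-fold and 13.6-fold to day 3 and 19.00-fold and 15.5-fold more to day 6 (edgeR adjusted p at most 3.9e-15). Col5a3 fell 12.4-fold to day 3, and its further 1.56-fold difference at day 6 was under the 2-fold minimum. The Col5a1/Col5a2 ratio by TPM was 0.597 ± 0.00230 in MEF, 0.608 ± 0.0170 at day 3, 0.616 ± 0.0911 at day 6 and 0.575 ± 0.0304 in ESC, and these values differed by less than the spread between libraries. By reads, in contrast, the ratio was 1.31 ± 0.0303 in MEF, 1.16 ± 0.00602 at day 3 and 0.950 ± 0.0339 at day 6, more than that spread apart. The gene-level TPM of Col5a2 also counts transcripts beside the main one, which holds 97.3% of its reads. Main transcripts of Col5a1 and Col5a2 were at 283 ± 13.1 and 282 ± 5.92 TPM in MEF, within their spread. In ESC they were at 39.1 ± 1.10 and 39.7 ± 1.67, again within it. At day 3 they stood apart, at 18.7 ± 0.443 and 21.1 ± 0.329. At day 6 they were at 0.962 ± 0.0351 and 1.36 ± 0.0800, also apart. From day 6 to day 9 Col5a1 fell 2.12-fold, a call that was lost without the first day 9 library (log2 fold change -0.90).

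Col11a1 encodes a type XI chain found inside thin fibrils. Col11a1 was at 556 and 556 CPM in the MEF libraries, 75.9 and 77.8 at day 3, 26.02 and 26.04 at day 6, 17.6 and 17.96 at day 9 and, in ESC, 31.4 and 31.2. It was highest in MEF, and ESC stood only 1.76-fold above day 9, under the 2-fold minimum. ESC held 5.63% ± 0.0345 of the MEF level. The low-level fibrillar genes Col24a1 and Col27a1 fell 47.2-fold and 13.1-fold to day 3, and Col11a2 fell 3.96-fold from 4.23 ± 0.656 CPM.

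Col2a1, the chain of cartilage collagen (chr15:97975602-98004695, minus strand), was the only fibrillar gene called higher at day 3. Col2a1 was at 37.8 and 42.7 CPM in the MEF libraries, 110.2 and 109 at day 3, 1.73 and 1.75 at day 6, 1.29 and 1.67 at day 9 and, in ESC, 13.8 and 11.9. Day 3 was highest and day 6 and day 9 lowest, and no group overlapped another. It rose 2.72-fold to day 3 (log2 fold change 1.44 ± 0.06 SE, edgeR adjusted p = 6.2e-11) and fell 62.8-fold to day 6. Of 5 cartilage markers, 4 fell at day 3 (Acan, Comp, Matn3 and Sox9) and none rose, against 14.5% and 14.6% of all tested genes. The summed level of the 5 was 44.0 to 44.4 CPM in MEF and 9.05 to 10.9 at day 3. Most of it was Sox9, at 35.9 ± 0.779 CPM in MEF and 9.31 ± 1.46 at day 3. Comp and Matn3 were low already in MEF, at 0.566 ± 0.278 and 1.54 ± 0.0192 CPM.

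Col2a1 also changed in transcript makeup, and its alternative exon is shown because the transcripts differ by it. Coding exon 2 (chr15:98000403-98000606, minus strand, GRCm38, from GENCODE M21) adds a cysteine-rich domain to the N-terminal propeptide, and is part of the IIA form known from precursors of cartilage cells. It has 204 bases, or 68 codons, and the capitals are its 10 in-frame cysteine codons (TGC or TGT).
Col2a1 exon 2: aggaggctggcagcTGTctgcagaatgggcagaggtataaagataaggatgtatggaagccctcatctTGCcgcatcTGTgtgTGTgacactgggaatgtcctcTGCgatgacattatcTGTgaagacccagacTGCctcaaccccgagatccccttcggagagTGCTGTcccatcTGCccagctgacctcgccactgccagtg
The transcript with the exon, Col2a1-001, held 56.8% and 41.9% of the Col2a1 reads in the MEF libraries, 49.9% and 42.0% at day 3, and 13.1% and 23.8% in ESC. The transcript without it, Col2a1-002, held 41.6% and 55.4%, 48.9% and 55.2%, and 85.7% and 74.6%. Both ESC libraries lay below all MEF and day 3 libraries for the exon-containing form. The ESC shares rest on 61 to 106 reads of that form, and reads of 50 nt were divided between transcripts by an estimate, so they carry more error than gene totals. Day 6 and day 9 had too few reads to divide. The same check in the 23 collagen genes with at least 200 reads in the libraries compared found one other gene with a shift of 20 percentage points, Col17a1, where the libraries of one group differed by more than the groups did.

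Type IV collagen is the network of every basement membrane. Col4a1 and Col4a2 lie head to head on chromosome 8 (chr8:11198423-11312826, minus strand, and chr8:11312805-11449287, plus strand), with their starts 21 bases apart and overlapping. Col4a1 was at 2068 and 1993 CPM in the MEF libraries, 1934 and 1935 at day 3, 1058 and 1012 at day 6, 622 and 649 at day 9 and, in ESC, 627 and 637. Col4a2 was at 1598 and 1537 CPM in the MEF libraries, 1644 and 1659 at day 3, 651 and 639 at day 6, 375 and 389 at day 9 and, in ESC, 451 and 461. Neither gene was called between MEF and day 3, with log2 fold changes of -0.07 ± 0.03 and 0.08 ± 0.03 SE. Col4a2 fell 2.56-fold to day 6, and the 1.87-fold difference of Col4a1 was under the 2-fold minimum. At day 9 they stood 3.196-fold and 4.103-fold below MEF (edgeR adjusted p = 5.2e-15 and 4.8e-16). For Col4a1 the day 9 and ESC libraries overlapped, while for Col4a2 both ESC libraries were above both of day 9. While the fibrillar genes fell further, Col4a1 went from 3.26% ± 0.00783 of the collagen reads in MEF to 44.98% ± 0.0352 at day 9, and Col4a2 from 2.51% ± 0.00936 to 27.04% ± 0.0819. Per length, the main transcripts of Col4a1 and Col4a2 were the highest of the family at day 6 (74.8 ± 2.91 and 47.3 ± 0.695 TPM) and at day 9 (43.2 ± 1.04 and 26.4 ± 0.706). In MEF, Col1a2, Col1a1, Col3a1, Col5a1, Col5a2, Col6a1 and Col6a2 stood above Col4a1 (145 ± 5.98 TPM), although Col5a1 and Col5a2, and likewise Col6a2 and Col4a1, did not differ beyond their spread. The Col4a1/Col4a2 ratio by TPM was 1.22 ± 0.0135 in MEF, 1.07 ± 0.0124 on day 3, 1.43 ± 0.0314 on day 6, 1.49 ± 0.0663 on day 9 and 1.27 ± 0.0471 in ESC.

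Endoderm of the early embryo is a strong source of type IV collagen, and the summed level of 9 endoderm markers was 501 to 504 CPM in MEF, 288 to 292 at day 3, 64.7 to 67.8 at day 6, 25.8 to 29.9 at day 9 and, in ESC, 58.0 to 61.8. Most of the MEF sum came from Pdgfra, Dab2 and Thbd, at 274 ± 0.268, 117 ± 0.759 and 87.8 ± 0.922 CPM. The markers did not move together. At day 3 Pdgfra was at 1.57 ± 0.135, Dab2 at 175 ± 0.488 and Thbd at 107 ± 2.62 CPM. Of 7 tested markers, ESC had 2 higher than MEF (Sox7 and Sox17) and 5 lower, against 25.5% and 20.6% of all tested genes. Set against day 9, ESC had 6 of the 7 higher and 0 lower, against 18.6% and 14.3%. The list shares Pdgfra with the fibroblast markers, and the part of endoderm cells was not tested.

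The other type IV chains were less abundant. Col4a5 and Col4a6 lie head to head on the X chromosome (chrX:141475385-141689234, plus strand, and chrX:141165403-141474076, minus strand), 1308 bases apart. Col4a5 was at 222 and 222 CPM in the MEF libraries, 75.8 and 78.3 at day 3, 8.58 and 8.802 at day 6, 6.56 and 6.39 at day 9 and, in ESC, 55.6 and 58.6. It fell 2.88-fold to day 3 and 8.86-fold to day 6, and ESC were 8.84-fold above day 9 (edgeR adjusted p = 1e-13, 5.4e-15 and 3.6e-15). Col4a6 was lower in level with the same calls, from 14.5 ± 1.02 CPM in MEF to 5.48 ± 0.0233 at day 3 and 0.433 ± 0.07196 at day 6 (SD, n = 2). MEF differ from the induced cells in Xist and Ddx3y, so the fall of these X-linked genes at day 3 comes with a difference in sex-linked RNA whose part was not tested. ESC and day 9 differ in the same RNAs, with Xist at 10.2 ± 1.64 and 1075 ± 39.7 CPM and Ddx3y at 26.5 ± 0.4802 and 0.0987 ± 0.00325 (SD, n = 2), and the part of this in the higher level of Col4a5 and Col4a6 in ESC was not tested. Xist was 1009.9 ± 113 CPM at day 3 and 1304 ± 18.7 at day 6. Col4a3 and Col4a4, another head-to-head pair, stayed under 1 TPM. Col4a3 was called higher at day 3, from 0.813 and 1.37 to 1.696 and 2.78 CPM, but not without the first MEF library, without the second day 3 library, with DESeq2 or with a replicate block.

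Col15a1, a collagen with heparan and chondroitin sulfate chains found at the outer face of vascular and muscle basement membranes (chr4:47208161-47313167, plus strand), had a transient peak. Col15a1 was at 156 and 148 CPM in the MEF libraries, 636 and 650.0 at day 3, 88.05 and 89.6 at day 6, 18.6 and 19.6 at day 9 and, in ESC, 3.21 and 3.39. Day 3 was the highest group and ESC the lowest, with no overlap anywhere. The gene rose 4.23-fold to day 3 (log2 fold change 2.08 ± 0.04 SE, edgeR adjusted p = 2.4e-15), fell 7.24-fold to day 6 and 4.63-fold to day 9, and was 5.79-fold lower still in ESC. It was 1 of 3 collagen genes called lower in ESC than at day 9, with Col17a1 and Col4a3. Of 5 endothelial markers, 3 were higher at day 3 than in MEF (Cdh5, Pecam1 and Tek), against 14.6% of all tested genes. The summed level of the 5 was 4.73 to 5.46 CPM in MEF, 130 to 133 at day 3, 129 to 134 at day 6 and 78.7 to 79.7 at day 9. In ESC it was 107 to 112. Most of the day 3 sum was Tek, which rose from 2.33 ± 0.1097 CPM in MEF to 121 ± 0.539 at day 3 (SD, n = 2). Pecam1 was at 0.925 ± 0.138 CPM at day 3 and 99.0 ± 3.77 in ESC, where Tek was at 7.29 ± 0.306. The part of such cells was not tested.

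Col18a1, whose C-terminal fragment is endostatin, dipped and returned. Col18a1 was at 188 and 185 CPM in the MEF libraries, 20.03 and 19.4 at day 3, 87.3 and 86.8 at day 6, 132 and 138 at day 9 and, in ESC, 306 and 320.4. Day 3 was lowest and ESC highest, and no group overlapped another. The gene fell 9.46-fold to day 3 (log2 fold change -3.24 ± 0.04 SE, edgeR adjusted p = 2.3e-16) and rose 4.42-fold to day 6 (2.14 ± 0.05 SE, edgeR adjusted p = 5.4e-14). ESC were 2.32-fold above day 9. The 1.68-fold difference between ESC and MEF was under the 2-fold minimum with TMM scaling, and above it with library-size scaling (log2 fold change 1.09).

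Col7a1, the chain of the anchoring fibrils that tie the epidermal basement membrane to the dermis, fell early and was high again in ESC. Col7a1 was at 312 and 297 CPM in the MEF libraries, 6.11 and 6.83 at day 3, 0.911 and 0.696 at day 6, 1.61 and 2.05 at day 9 and, in ESC, 131 and 127. The fall to day 3 was 47.1-fold (log2 fold change -5.56 ± 0.06 SE, edgeR adjusted p = 3.2e-17), and ESC stood 69.6-fold above day 9. ESC held 42.5% ± 1.05 of the MEF level, against 0.6002% ± 0.102 at day 9. ESC were called 2.36-fold lower than MEF, which was lost with library-size scaling (log2 fold change -0.90). The 2.29-fold rise from day 6 to day 9 was lost without the second day 9 library (log2 fold change 0.99).

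**Figure D4:**
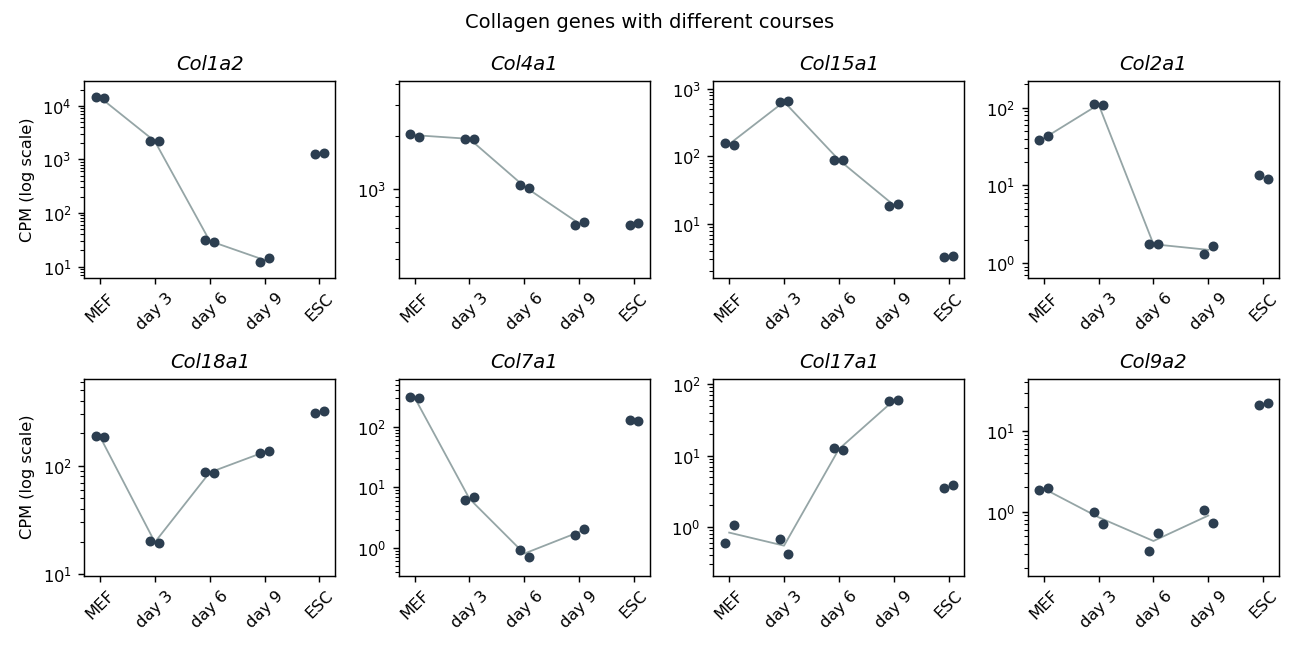
CPM (log scale, axes differ) of 8 collagen genes in the 5 groups; points are the 2 libraries of a group and lines join the means of MEF, day 3, day 6 and day 9. Col15a1 and Col2a1 peak at day 3, Col18a1 is lowest at day 3, Col17a1 is highest at day 9 (58.8 and 59.7 CPM), and Col9a2 is highest in ESC.

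Type VI collagen forms beaded filaments around cells from chains of Col6a1, Col6a2 and usually Col6a3. Col6a1 and Col6a2 lie in the same direction on chromosome 10 (chr10:76708792-76726168 and chr10:76595762-76623630, both minus strand). Col6a1 was at 1930.1 and 1924 CPM in the MEF libraries, 801 and 768 at day 3, 166 and 170.4 at day 6, 33.4 and 33.3 at day 9 and, in ESC, 74.98 and 81.4. Col6a2 was at 1318 and 1317 CPM in the MEF libraries, 754 and 726 at day 3, 210.0 and 219 at day 6, 44.7 and 49.4 at day 9 and, in ESC, 37.4 and 42.97. Col6a3 was at 2529.6 and 2532 CPM in the MEF libraries, 219 and 228 at day 3, 25.2 and 25.6 at day 6, 6.91 and 6.52 at day 9 and, in ESC, 101 and 106. All 3 were highest in MEF, and Col6a1 and Col6a3 were lowest at day 9. All went on falling after day 6, by 5.04-fold, 4.55-fold and 3.79-fold to day 9 (edgeR adjusted p at most 2e-11). Col6a3 fell 11.3-fold to day 3, Col6a1 2.46-fold, and the 1.78-fold difference of Col6a2 was under the 2-fold minimum. The Col6a3/Col6a1 ratio by gene-level TPM was 1.08 ± 0.0221 in MEF, 0.254 ± 0.00790 at day 3, 0.119 ± 0.0167 at day 6 and 1.08 ± 0.0246 in ESC. The gene-level TPM of Col6a3 also counts transcripts beside the main one, which holds 82.2% of its reads. Main transcripts of Col6a3 and Col6a1 were at 108 ± 0.931 and 229 ± 3.93 TPM in MEF. At day 3 they were at 10.2 ± 0.312 and 95.1 ± 0.0523, and at day 6 at 1.10 ± 0.0464 and 20.2 ± 0.235. In ESC they were at 4.59 ± 0.0976 and 9.82 ± 0.443. The Col6a1/Col6a2 ratio by TPM was 1.43 ± 0.00214, 1.04 ± 0.00166 and 0.765 ± 0.0103 in MEF, day 3 and day 6, then 0.696 ± 0.0514 at day 9 and 1.91 ± 0.0770 in ESC. ESC were 2.35-fold and 15.5-fold above day 9 for Col6a1 and Col6a3, and Col6a2 was not called (log2 fold change -0.23 ± 0.06 SE).

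Col6a5, one of the chains that can stand in for Col6a3, went the other way at low level. Col6a5 was at 0.665 and 1.22 CPM in the MEF libraries, 8.61 and 9.61 at day 3, 2.26 and 1.42 at day 6, 0.964 and 0.884 at day 9 and, in ESC, 6.69 and 7.21. Day 3 and ESC were high and the other groups low, with MEF and day 9 overlapping. It rose 9.45-fold to day 3 and was 7.21-fold higher in ESC than in MEF (edgeR adjusted p = 3.5e-08 and 1e-07). Its 2.000-fold fall from day 6 to day 9 was lost without the first day 6 library (log2 fold change -0.62) or the second day 9 library (-0.93), and with DESeq2 or library-size scaling. Col6a4 was also higher in ESC, at 1.72 ± 0.0191 CPM against 0.377 ± 0.146 in MEF, and stayed under 1 TPM (SD, n = 2).

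The short-chain collagen Col8a1, of vessel walls and the cornea, was at 458 and 467 CPM in the MEF libraries, 83.4 and 88.1 at day 3, 1.53 and 1.78 at day 6, 1.06 and 1.46 at day 9 and, in ESC, 93.4 and 102. MEF were highest and day 9 lowest, although day 6 and day 9 libraries were close. It fell 5.395-fold to day 3 and 51.7-fold to day 6 (edgeR adjusted p = 8e-15 and 3.6e-15), and ESC were 75.7-fold above day 9. Its partner Col8a2 fell 2.55-fold and 8.86-fold from 30.1 ± 1.31 CPM in MEF, so that the Col8a1/Col8a2 ratio by TPM went from 9.26 ± 0.708 to 3.46 ± 0.0963 at day 3. Col10a1, of hypertrophic cartilage, fell 2.92-fold to day 3 from 6.06 ± 0.786 CPM.

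Among the fibril-associated collagens, which sit on fibril surfaces, Col12a1 had the largest fall at day 3 of the tested collagen genes. Col12a1 was at 4042 and 3789 CPM in the MEF libraries, 25.01 and 25.1 at day 3, 1.26 and 1.12 at day 6, 1.06 and 1.54 at day 9 and, in ESC, 172 and 173. The libraries of day 6 and day 9 overlapped, and all other groups stood apart. It fell 156-fold to day 3 (log2 fold change -7.29 ± 0.05 SE, edgeR adjusted p = 9.8e-19) and 20.96-fold to day 6, and ESC held 4.41% ± 0.0129 of the MEF level. Col16a1 was at 458 and 443 CPM in the MEF libraries, 28.6 and 27.1 at day 3, 3.65 and 2.96 at day 6, 0.932 and 1.92 at day 9 and, in ESC, 49.6 and 55.8. It fell 16.1-fold and 8.42-fold in these steps. The 2.23-fold fall from day 6 to day 9 was lost without the first day 6 library (log2 fold change -0.998) or the first day 9 library (-0.78). Col14a1 fell 25.9-fold to day 3 from 62.8 ± 3.78 CPM in MEF.

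The type IX genes, known from cartilage, were low and did not move together. Col9a2 was at 1.88 and 1.98 CPM in the MEF libraries, 0.996 and 0.709 at day 3, 0.323 and 0.544 at day 6, 1.06 and 0.732 at day 9 and, in ESC, 21.1 and 22.2. Both ESC libraries stood far above the 8 others, 11.2-fold above MEF and 24.5-fold above day 9 (edgeR adjusted p = 1.5e-10 and 3.4e-11). Its calls below that level depended on single libraries. The 2.25-fold fall to day 3 was lost without the second day 3 library (log2 fold change -0.96), the 2.03-fold rise to day 9 without the first library of day 6 (0.69) or of day 9 (0.76), and the fall from MEF to day 9 without the second day 9 library (-0.87). Col9a3 was at 2.11 and 1.71 CPM in the MEF libraries, 0.996 and 0.355 at day 3, 2.999 and 3.33 at day 6, 5.14 and 5.61 at day 9 and, in ESC, 3.18 and 3.74. Day 9 was highest and day 3 lowest, and day 6 overlapped ESC. The gene fell 2.76-fold to day 3, a call lost without the second day 3 library (log2 fold change -0.93), and rose 4.59-fold to day 6 (edgeR adjusted p = 3.2e-05). It stood 2.83-fold above MEF at day 9. Col9a1 had 18 and 34 reads in MEF, 2 in each day 3 library, and 0 in all day 6 and day 9 libraries.

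Col17a1, a transmembrane collagen of the hemidesmosomes that hold epithelial cells to the basement membrane (chr19:47646344-47692094, minus strand), had the largest rise of the family during induction. Col17a1 was at 0.591 and 1.07 CPM in the MEF libraries, 0.673 and 0.414 at day 3, 12.8 and 11.8 at day 6, 58.8 and 59.7 at day 9 and, in ESC, 3.54 and 3.85. MEF and day 3 overlapped, and day 6, day 9 and ESC each stood apart, with day 9 highest. The gene rose 22.2-fold from day 3 to day 6 (log2 fold change 4.48 ± 0.17 SE, edgeR adjusted p = 2.6e-11) and 4.82-fold to day 9 (2.27 ± 0.09 SE, edgeR adjusted p = 1.6e-10). ESC were 16.02-fold lower than day 9 and 4.33-fold higher than MEF. By day 9 Col17a1 was the sixth of the family per length, at 3.704 ± 0.262 TPM, within the spread of Col6a1 (3.77 ± 0.0351). The 4 keratinocyte markers Krt5, Krt14, Krt15 and Trp63 summed to 2.07 to 2.71 CPM in MEF and 0.532 to 0.861 at day 3. The sum was 0.323 to 0.756 at day 6, 2.96 to 3.16 at day 9 and 1.33 to 1.71 in ESC. Of these markers 2, Krt5 and Krt14, were higher at day 9 than at day 6, against 5.18% of all tested genes. From MEF to day 9 the markers did not move together. Krt14 was at 2.03 ± 0.411 CPM in MEF and 2.14 ± 0.157 at day 9. Krt5 was called higher, from 0.0369 ± 0.0522 CPM in MEF to 0.517 ± 0.0877 at day 9. It was 1 of 3 tested markers called higher in that comparison, against 24.1% of all tested genes. The part of such cells was not tested.

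The remaining transmembrane and unclassed genes were low. Col13a1, of muscle and skin adhesion sites, had 12 and 6 reads in MEF, 0 in day 3 and day 6, 1 and 0 at day 9, and 139 and 171 in ESC. Col26a1 was at 1.37 and 1.37 CPM in the MEF libraries, 0.565 and 0.532 at day 3, 0.588 and 0.756 at day 6, 0.514 and 0.884 at day 9 and, in ESC, 3.24 and 4.09. Both ESC libraries were above all others, 2.67-fold above MEF (log2 fold change 1.42 ± 0.28 SE, edgeR adjusted p = 0.00035). Col25a1 fell 19.7-fold to day 3 from 8.11 ± 0.177 CPM, and Col23a1 fell 5.37-fold from day 3 to day 6. Col28a1 and Col6a6 fell in that step by 5.29-fold and 3.51-fold, at levels under 1 TPM. Col20a1 was called higher at day 3 (0.702 and 0.823 CPM in MEF and 1.75 and 2.13 at day 3), and Col22a1 was called in none of the 6 comparisons.

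The stretches before Col3a1 and Col17a1 are printed because these genes lie at the ends of the range. Col3a1 had the largest estimated fall by day 9, within the spread of Col12a1, and Col17a1 the largest rise. The stretches come from RefSeq promoters on GRCm38.p6 and end where the annotated transcripts begin. The Col3a1 stretch is chr1:45311288-45311537 (plus strand) and the Col17a1 stretch chr19:47692095-47692292 (minus strand), and capitals mark matches to TATAAA and, in the second, to CCACCC on the opposite strand.
Col3a1 upstream: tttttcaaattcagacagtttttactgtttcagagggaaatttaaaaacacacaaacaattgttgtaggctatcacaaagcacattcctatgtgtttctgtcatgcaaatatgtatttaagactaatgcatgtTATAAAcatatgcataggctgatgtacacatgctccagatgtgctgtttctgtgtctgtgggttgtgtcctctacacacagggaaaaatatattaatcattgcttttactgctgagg
Col17a1 upstream: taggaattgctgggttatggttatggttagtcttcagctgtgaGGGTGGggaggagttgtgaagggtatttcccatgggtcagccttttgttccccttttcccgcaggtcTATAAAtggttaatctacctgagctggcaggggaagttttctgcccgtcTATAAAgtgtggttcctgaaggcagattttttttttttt
Promoters were found for 35 of the 44 genes, 38 in all. In the 250 bases before the start, on both strands, TATAAA was in 13.2% of them and 12.4% of all 32851 promoters, CCAAT in 34.2% and 33.8%, GGGCGG in 57.9% and 32.7%, and CCACCC in 52.6% and 28.1%. These shares were not tested, and a match is not a binding site.

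Embryonic stem cells held more collagen RNA than day 9 cells. Among genes with at least 20 CPM in MEF, the 10 fibrillar genes stood at 5.29% to 31.9% of the MEF level in ESC, with a median of 9.10%. At day 9 they stood at 0.0305% ± 0.00138 for Col3a1, the lowest, to 3.67% ± 0.669 for Col2a1, the highest. The 6 basement membrane genes stood at 2.17% to 168% in ESC, with a median of 30.1%, and the 8 others at 3.05% to 21.1%, with a median of 5.71%. The ESC were grown on feeder cells, and fibroblast markers moved with the collagens. Of 11 such markers, 10 were higher in ESC than at day 9, against 18.6% of all tested genes. The sum of the 11 was 4694 and 4722 CPM in the ESC libraries, most of it from Fn1 (3713 ± 12.1). As a share of the MEF level the markers ran from 1.11% to 42.9% in ESC, with a median of 7.98%. Pdgfra, Lum and Dcn were at 2.18% ± 0.412, 1.11% ± 0.7903 and 2.87% ± 0.398 of MEF, whereas Pdgfrb, Thy1 and Postn were at 13.2% ± 0.00169, 14.03% ± 0.919 and 8.37% ± 0.357 (SD, n = 2). No marker was at 0 in all libraries, and Lum was at 0 in both day 9 libraries. The part of feeder RNA in the ESC values was not tested. Col18a1 (168% ± 5.51 of MEF) stood above all 11 marker shares, Col7a1 (42.5% ± 1.05) within the spread of the highest, Fn1 (42.9% ± 0.1403), and Col15a1 (2.17% ± 0.0838) within the spread of Pdgfra, near the low end.

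**Figure D5:**
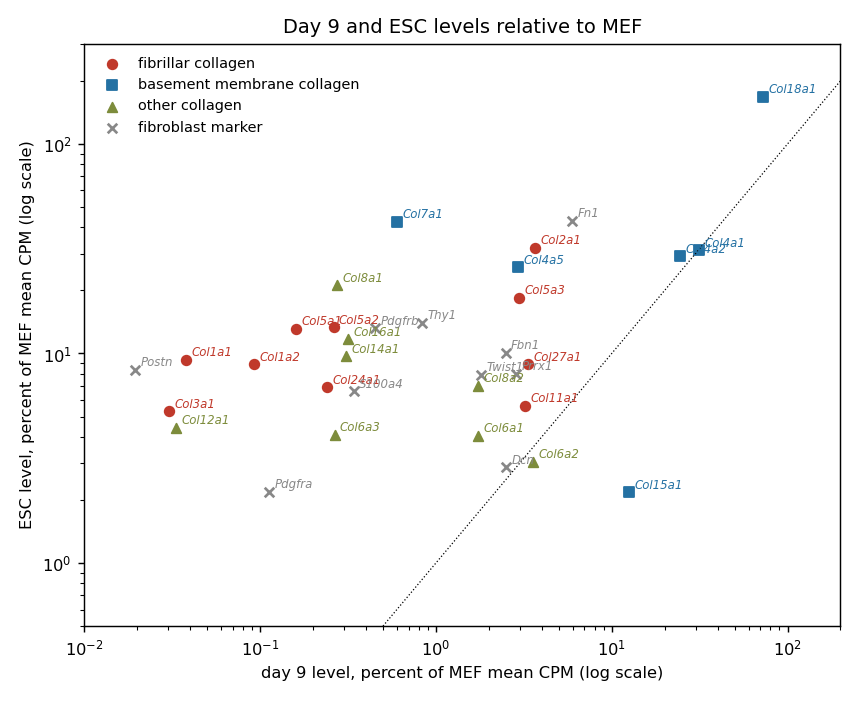
Level in ESC against level at day 9, each as percent of the MEF mean CPM (both axes log scale), for collagen genes and fibroblast markers with at least 20 CPM in MEF; the dotted line marks equal levels, and Lum, at 0 at day 9, is not drawn. Most fibrillar genes and markers lie well above the line, Col4a1 lies on it and Col15a1 below it.

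Most enzymes and helpers of collagen assembly were lower in the induced cells than in MEF. The list of 35 such genes had 34 tested, of which 23 were lower and 2 higher at day 3 than in MEF, against 14.5% and 14.6% of all tested genes. From day 3 to day 6, 14 were lower and 1 higher (10.2% and 9.26% of all), and from day 6 to day 9, 4 were lower and 1 higher (2.68% and 5.18%). At day 9, 30 were lower than in MEF and 0 higher (19.8% and 24.1%). ESC against day 9 had 16 higher and 2 lower (18.6% and 14.3%), and ESC against MEF 0 higher and 29 lower (25.5% and 20.6%). The median log2 fold change of day 9 with MEF was -2.91, beside -4.92 for the tested collagen genes. This difference was not tested.

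Within the list, the 19 chaperones and modifying enzymes had 12 lower and 1 higher at day 3, against 14.5% and 14.6% of all tested genes. From day 3 to day 6 only 2 were lower, a share near the 10.2% of all tested genes. Serpinh1, the collagen-specific chaperone HSP47, was at 3776 and 3825 CPM in the MEF libraries, 1014 and 962 at day 3, 584 and 597 at day 6, 395 and 403 at day 9 and, in ESC, 359.7 and 391. It fell 3.85-fold to day 3. P4ha1, P4ha2 and P4ha3, the catalytic subunits of the ascorbate-dependent prolyl 4-hydroxylase, fell 14.6-fold, 37.9-fold and 6.99-fold to day 3 (edgeR adjusted p at most 8.1e-15), and ESC were 6.15-fold, 13.4-fold and 11.7-fold above day 9. Plod1, a lysyl hydroxylase, fell 7.396-fold to day 3 and was not called between day 3 and day 6, at 51.1 ± 0.668 CPM at day 3 and 52.2 ± 0.173 at day 6 (SD, n = 2). Of the 3 export genes 2 were lower at day 3, Creb3l1, a transcription factor of secretory cells, by 26.2-fold and Sec24d, of the transport vesicle coat, by 6.03-fold.

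Propeptide processing genes had 5 of 7 tested lower at day 3 and 5 of 7 higher in ESC than at day 9, against 14.5% and 18.6% of all tested genes. Adamts2, which removes the N-terminal propeptide, fell 17.2-fold to day 3, and Bmp1, which removes the C-terminal one, fell 3.41-fold. Pcolce2, an enhancer of the latter step, rose 2.85-fold. The 5 cross-linking genes of the lysyl oxidase family had 4 lower at day 3, 5 lower from day 3 to day 6 and 5 lower at day 9 than in MEF, against 14.5%, 10.2% and 19.8% of all tested genes. Lox was at 2996 and 2902 CPM in the MEF libraries, 97.2 and 96.5 at day 3, 0.588 and 0.726 at day 6, 1.03 and 2.07 at day 9 and, in ESC, 398 and 403. It fell 30.4-fold to day 3 and 147-fold to day 6 (edgeR adjusted p = 7.6e-17 and 7.1e-15), and ESC were 248-fold above day 9. Its 2.45-fold rise from day 6 to day 9 rests on levels of 0.588 and 0.726 and 1.03 and 2.07 CPM.

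The 8 collagen receptor genes had 6 lower and 0 higher at day 3, 5 lower from day 3 to day 6, and 7 lower at day 9 than in MEF. Over all tested genes 14.5%, 10.2% and 19.8% were lower in these comparisons, and 14.6% were higher at day 3. Itga11, the integrin chain that pairs with Itgb1 on fibroblasts to bind type I collagen, was at 472 and 469 CPM in the MEF libraries, 3.88 and 4.11 at day 3, 0.323 and 0.363 at day 6, 0.546 and 0.4799 at day 9 and, in ESC, 86.9 and 86.7. It fell 118-fold to day 3 (log2 fold change -6.88 ± 0.05 SE, edgeR adjusted p = 9.8e-19), and ESC were 169-fold above day 9. Mrc2, an uptake receptor for collagen, fell 3.85-fold to day 3 and 13.01-fold to day 6. The broadly used partner Itgb1 fell 2.02-fold and 2.11-fold in the same steps and was 2.34-fold higher in ESC than at day 9. The discoidin receptor Ddr2 fell 2.08-fold to day 3, and Ddr1, its epithelial relative, was called lower from day 3 to day 6, by 3.13-fold.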

How the data were processed

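The collagen genes and all lists were chosen with earlier results of these data known. Poly(A) RNA of 10 libraries was sequenced as single reads of 50 nt with a stranded kit, per the labels' protocols. Per the submitters' processing notes, reads were quantified with Salmon 0.8.2 and mm10. The index and annotation release are not given in the sources used here. Per the file headers, each deposited table gives an estimated count and a TPM for 109617 transcripts. The deposited TPM values are scaled by length and library total. A batch label common to all libraries was given.

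Estimated counts were summed to 45706 genes by symbol and ID in the transcript names and rounded. Genes were kept with filterByExpr (minimum count 10, total 15), scaled with TMM, and tested with edgeR 4.0.16 (R 4.3.3, glmQLFit and glmQLFTest) in one fit to all 10 libraries without a block. Calls needed a Benjamini-Hochberg adjusted p under 0.05 and 2-fold. The SE of a log2 fold change is its size divided by the root of the F statistic. The common biological coefficient of variation was 3.75%. The test was also run on data simulated for day 3 against MEF. Far fewer genes were changed there than were called here, so that run does not check these calls. Values per library are given for genes with a mean of at least 10 TPM in a group, and for genes of at least 1 TPM called against the direction of most called members. Genes of other lists are named where called and at 20 CPM or more, at most 4 per list and comparison. Other marker genes are named where a count of 5 or fewer called for it, after their values were seen. GENCODE M21 (GRCm38) gave coordinates, and all 44 gene IDs were found in it. Alternatives used DESeq2 1.42.0 and limma 3.58.1. The fit without ESC libraries was added after seeing the data. Tables and figures were made with Python 3.11.15, numpy 2.4.6, pandas 2.3.3 and matplotlib 3.10.9.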

Additional observations from a re-analysis of the deposited data

How the results depend on the processing

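No called value of the 25 collagen genes given per library, and no count, reversed under the alternatives run. Without a low-count filter, with DESeq2 and with only the compared groups in the fit, all counts of called collagen genes stayed within 1.5 times the reported ones. The stricter filter (10 CPM in 2 libraries) tested 27 collagen genes and left 2 of 5 higher at day 3, 1 of 2 higher at day 9 against MEF and 2 of 6 higher in ESC against MEF. Limma on log2(TPM + 1) called fewer: 2 higher and 18 lower (day 3 against MEF), 18 lower (day 6 against day 3), 1 higher and 3 lower (day 9 against day 6), 1 higher (day 9 against MEF), 17 higher (ESC against day 9) and 1 higher (ESC against MEF). On log2(TPM + 0.1) it called 3 higher (day 3 against MEF) and 1 higher (day 9 against day 6). With no fold minimum the counts were 8 higher (day 3 against MEF), 6 higher and 16 lower (day 9 against day 6), and 6 lower (ESC against day 9). Under library-size scaling the median over all genes moved (log2) from 0.08 to 0.29 (day 3 against MEF), from 0.19 to 0.48 (day 9 against MEF) and from 0.10 to 0.44 (ESC against MEF), where it gave 9 higher and 31 lower collagen genes. Over all tested genes the same scaling gave 6553 higher and 3152 lower in place of 5142 and 4148 (ESC against MEF), 6241 and 3284 in place of 4857 and 3994 (day 9 against MEF), and 3809 and 2483 in place of 2950 and 2923 (day 3 against MEF). Without the ESC libraries the fit called 4 higher and 28 lower (day 3 against MEF), 3 and 31 (day 6 against day 3), 2 and 8 (day 9 against day 6) and 2 and 36 (day 9 against MEF). Leaving out single libraries gave 4 to 6 higher and 26 to 30 lower (day 3 against MEF) and 2 to 3 higher and 7 to 9 lower (day 9 against day 6). Beyond the fewer genes of the stricter filter, the cause was not tested.

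As a share of summed TPM the collagens held 0.995% in MEF, 0.126% on day 3, 0.0255% on day 6, 0.0132% on day 9 and 0.103% in ESC. Of reads on genes not mitochondrially encoded they held 0.997% on day 3, 0.259% on day 6, 0.156% on day 9 and 0.736% in ESC. Read-based chain ratios, in the order MEF, day 3, day 6, day 9 and ESC where given, were 1.05, 0.205, 0.277 and (ESC) 1.10 for Col1a1/Col1a2, 1.30, 1.17, 1.61, 1.66 and 1.39 for Col4a1/Col4a2, and 1.31, 1.16, 0.950 and (ESC) 1.29 for Col5a1/Col5a2. They were 1.46, 1.06 and 0.784 for Col6a1/Col6a2 to day 6, 1.31, 0.285, 0.151 and (ESC) 1.33 for Col6a3/Col6a1, and 15.4 and 7.31 for Col8a1/Col8a2 in MEF and at day 3.

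With the replicate number as a block, 4 collagen genes were higher at day 3, without Col4a3, and no other call changed. Deviations of equally numbered libraries correlated from -0.0205 to 0.0222, so no pairing by number was seen. These deviations also hold sampling noise, which lowers a correlation, so a weak pairing is not excluded. Depth limits the genes with few reads: for Col9a1, Col13a1 and Col19a1 no fold is given.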
